A study of Mus musculus with 7 samples.

Results

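The SLC6 family holds the relatives of the creatine transporter. Transcripts of 9 of its genes, *Slc6a6*, *Slc6a7*, *Slc6a9*, *Slc6a11*, *Slc6a12*, *Slc6a13*, *Slc6a15*, *Slc6a17* and *Slc6a20a*, were followed in the cerebral cortex of mice that lack a working creatine transporter gene, *Slc6a8*. They were taken by gene symbol from a table of 24346 genes, with no threshold on their values in it. The animals were males on a C57BL/6J background at postnatal day 100. The 4 CrT-/y animals carried a deletion within *Slc6a8* on their only X chromosome in every cell of the body, and the 3 CrT+/y animals were wild-type males. Each animal gave 1 library of bulk cortical RNA, and the labels name no agent for either group. The deposited values are FPKM, fragment counts scaled for the length of the transcript and the depth of the library, so levels of different genes can be set side by side.

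Most SLC6 proteins carry small molecules into cells together with sodium, and often chloride, using the sodium gradient as the source of energy. In the brain they end the action of GABA and glycine at synapses, and they bring in osmolytes such as taurine and betaine and amino acids such as proline and leucine. The creatine transporter belongs to the branch of the family that also holds the GABA, taurine and betaine transporters. Its members in this set were *Slc6a6*, *Slc6a11*, *Slc6a12* and *Slc6a13*. The other members carry glycine, proline or neutral amino acids.

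*Slc6a8* itself was at 12.4, 14.9, 14.7 and 15.7 FPKM in CrT-/y replicates 0 to 3 and at 32.3, 29.6 and 28.0 FPKM in CrT+/y replicates 1 to 3, so the values followed the labels. Its log2 fold change was -1.05 (adjusted p = 0.0024 with limma), and RNA from outside the deleted stretch still counts toward it. Between 17207 and 17821 genes were above 0 FPKM in each animal. Excitatory neuron markers of the cortex were present in every library, at a summed 2676 to 3624 FPKM. The library of CrT+/y replicate 2 stood apart in choroid plexus RNA.

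*Slc6a17*, which encodes a neutral amino acid transporter of synaptic vesicles, had the most abundant of the 9 transcripts at 105.8 to 125.9 FPKM over the 7 animals. *Slc6a11*, the GABA transporter of astrocytes, came next at 48.6 to 57.9 FPKM, followed by the taurine transporter gene *Slc6a6* at 31.4 to 43.4 FPKM. The ranges of these 3 genes did not overlap. *Slc6a7* and *Slc6a15* had overlapping ranges, at 19.8 to 28.0 and 18.1 to 23.7 FPKM. *Slc6a9*, the gene of the glial glycine transporter GlyT1, lay below both at 13.6 to 17.6 FPKM. *Slc6a20a* and *Slc6a13* overlapped again, at 6.18 to 12.1 and 4.50 to 9.07 FPKM. *Slc6a12*, which encodes the betaine and GABA transporter BGT1, was at 0.276 to 0.984 FPKM, below 1 FPKM in every animal. The summed level of the 9 genes was 292.9 to 294.2 FPKM in CrT-/y and 272.0 to 276.6 FPKM in CrT+/y animals, and *Slc6a17* alone made up 38.9% to 45.5% of it. The mean of *Slc6a8* lay between those of *Slc6a6* and *Slc6a7* in CrT+/y cortex and between those of *Slc6a9* and *Slc6a20a* in CrT-/y cortex.

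**Figure D1:**
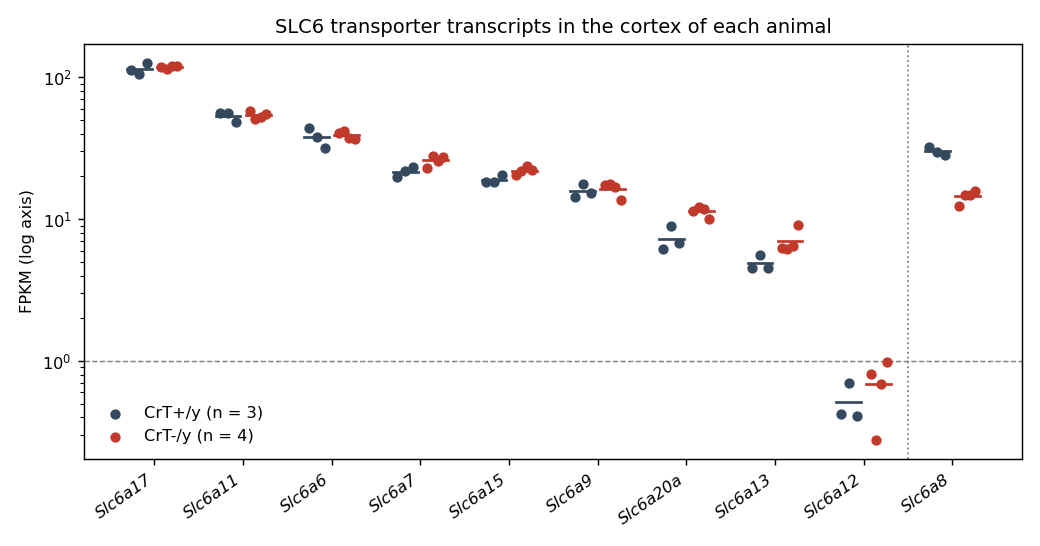
FPKM of each SLC6 transporter gene in each animal, on a log axis, ordered by mean level, with *Slc6a8* set apart on the right. Points are animals, short lines are group means, and the dashed line marks 1 FPKM. *Slc6a17* lies above 100 FPKM in all 7 animals and *Slc6a12* below 1 FPKM, and only *Slc6a20a*, *Slc6a13* and *Slc6a8* have groups that do not overlap.

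*Slc6a20a* and *Slc6a13* rose in CrT-/y cortex, by 0.65 and 0.49 on the log2 scale, and none of the 9 genes fell. The test was limma on log2(FPKM + 0.1), applied to all genes whose mean over the 7 animals reached 1 FPKM, and those with an adjusted p under 0.1 over all 12988 tested genes were called. Adding 0.1 slightly understates the change of weakly expressed genes. Of the 9 transporters, 8 reached the filter and 2 were called, both higher. Over all tested genes, 10.1% were called, and 2.90% were called higher. The groups of 2 of the 8 did not overlap, against 21.6% of all tested genes, or 6.57% with CrT-/y animals above. All 8 had a positive log2 fold change, as deposited and under 3 other scalings of the animals, with a median of 0.14 as deposited. Over all tested genes the median was -0.03 and 41.8% were positive. The counts of calls moved strongly with the animals that entered the fit, and both calls were lost without CrT-/y replicate 1 (adjusted p = 0.11 for *Slc6a20a* and 0.16 for *Slc6a13* with limma) or without CrT+/y replicate 1 (0.10 and 0.22). When CrT+/y replicate 3 was left out, *Slc6a20a*, *Slc6a7* and *Slc6a15* were called and *Slc6a13* was not (adjusted p = 0.104 with limma), in a fit that called 28.7% of all genes tested.

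**Figure D2:**
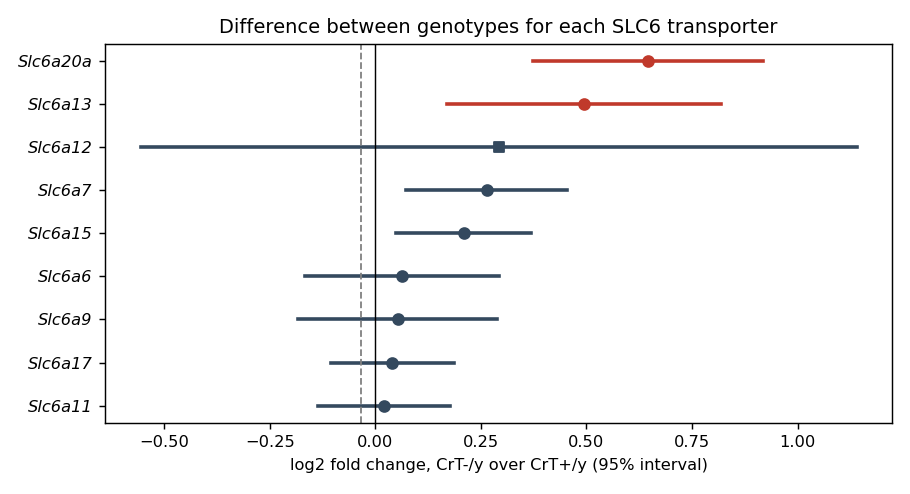
Log2 fold change of each transporter gene between 4 CrT-/y and 3 CrT+/y animals, with its 95% interval from limma. Red marks an adjusted p under 0.1, the square marks *Slc6a12*, fitted without a filter on low values, and the dashed line is the median of all tested genes at -0.03. The intervals of *Slc6a20a*, *Slc6a13*, *Slc6a7* and *Slc6a15* lie above 0.

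*Slc6a20a* encodes SIT1, a transporter of proline and related imino acids that also accepts glycine. It is known from kidney, gut, choroid plexus and the meninges. In the mouse assembly GRCm38 (mm10) the gene occupies 123634770 to 123678885 of chromosome 9, on the minus strand, and its principal transcript in GENCODE M21 has 11 exons and 2732 bp. Its level was 11.4, 12.1, 11.7 and 10.1 FPKM in CrT-/y replicates 0 to 3, and 6.18, 8.87 and 6.74 FPKM in CrT+/y replicates 1 to 3. Every CrT-/y animal was above every CrT+/y animal, and CrT+/y replicate 2 came nearest to them. The means were 11.3 ± 0.872 FPKM (SD, n = 4) and 7.26 ± 1.42 FPKM (SD, n = 3). The log2 fold change was 0.65 (standard error 0.12, 95% interval 0.37 to 0.92, adjusted p = 0.034 with limma), a rise of 56.4%. An exact permutation test of the 7 values gave a two-sided p of 0.029, the smallest that 35 splits of the animals allow. Its tandem neighbour *Slc6a20b*, which ends 2204 bp away, was at 0.045 FPKM or less in every animal. *Ccr9*, a chemokine receptor gene inside the span of *Slc6a20a* on the other strand, was at 0.041 to 0.161 FPKM. Whether strand was used in counting is not given in the sources used here.

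*Slc6a13* encodes a transporter of GABA and taurine, named GAT2, that is known from the leptomeninges, liver and kidney. It lies on chromosome 6 from 121300227 to 121337733 on the plus strand, with a principal transcript of 15 exons and 2234 bp. Its level was 6.25, 6.17, 6.41 and 9.07 FPKM in CrT-/y replicates 0 to 3 and 4.55, 5.59 and 4.50 FPKM in CrT+/y replicates 1 to 3. The groups did not overlap, but 3 of the CrT-/y animals lay close together and CrT-/y replicate 3 stood well above them. The means were 6.97 ± 1.40 FPKM (SD, n = 4) and 4.88 ± 0.618 FPKM (SD, n = 3). The log2 fold change was 0.49 (standard error 0.14, 95% interval 0.17 to 0.82, adjusted p = 0.087 with limma), a rise of 40.8%, and the exact permutation test gave a two-sided p of 0.029. The call was lost in 10 of 17 alternative settings. Among them was the fit that left out CrT-/y replicate 3 (log2 fold change 0.36, adjusted p = 0.13 with limma), and of the fits that left out 1 animal only the one lacking CrT+/y replicate 2 kept the call.

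The sequence just upstream of these 2 genes is shown because they were the transporters that rose. RefSeq promoter sequences of GRCm38.p6 were given for 6 of the 9 genes. Each stretch below ends at the base before the first transcript start in GENCODE, and capitals mark the letters GGGCGG or their reverse complement, the core of a GC box. The first covers chr9:123678886-123679082 (minus strand) and the second chr6:121300038-121300226 (plus strand).
Slc6a20a: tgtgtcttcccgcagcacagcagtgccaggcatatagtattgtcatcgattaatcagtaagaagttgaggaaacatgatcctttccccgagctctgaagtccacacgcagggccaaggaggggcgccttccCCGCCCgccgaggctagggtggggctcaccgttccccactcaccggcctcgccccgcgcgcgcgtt
Slc6a13: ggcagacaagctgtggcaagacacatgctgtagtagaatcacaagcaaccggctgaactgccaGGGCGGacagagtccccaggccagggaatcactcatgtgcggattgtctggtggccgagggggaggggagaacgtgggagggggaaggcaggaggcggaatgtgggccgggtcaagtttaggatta
Both windows were rich in G and C, at 61.4% for *Slc6a20a* and 59.8% for *Slc6a13*, against medians of 51.8% and 51.3% over 32851 promoter windows of the same lengths. Each of those windows was placed by the RefSeq start of its gene and ends short of that start, whatever its GENCODE start. Both windows above likewise end short of the RefSeq starts, 123678832 for *Slc6a20a* and 121300288 for *Slc6a13*. The bases nearest the RefSeq starts are therefore not part of the comparison. The window of *Slc6a20a* held 16 CG pairs and that of *Slc6a13* held 7, against a median of 4. The letters GGGCGG were found once in each on either strand, as they were at least once in 24.1% and 22.6% of all windows. A search on both strands found no match in either window for the TATA box letters TATAAA, the CCAAT box, the cAMP response element TGACGTCA, the forkhead letters TGTTTAC or the NFAT core TGGAAA. Because the search stopped short of the RefSeq starts, it could not find a TATA box or other match just before them. RefSeq gives 3 promoters for *Slc6a13*, and only the first listed was read.

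Both genes are known to be expressed in the leptomeninges, and markers of leptomeningeal fibroblasts were read beside them. All 20 markers on the list were above 0 FPKM in every animal, with *Igfbp2* and *Mgp* the most abundant. The fitted change was positive for 19 of the 20 (median 0.29 on the log2 scale), and 1 was called higher, *Slc22a6*, an organic anion transporter gene (log2 fold change 0.49, adjusted p = 0.090 with limma). The exception was *Igfbp2*, at a mean of 23.1 FPKM in CrT-/y and 27.7 FPKM in CrT+/y animals (log2 fold change -0.25, not called). The summed level of all 20 markers, *Igfbp2* included, was 132.2 to 178.0 FPKM in CrT-/y and 109.7 to 169.2 FPKM in CrT+/y animals, so the groups overlapped. CrT+/y replicate 2 had the highest sum of its group, and CrT-/y replicate 3 the highest of all. In bulk RNA, more cells of a type and more RNA per cell cannot be told apart. The mean log2 level of the list was 0.31 higher in CrT-/y animals (exact permutation test, two-sided p = 0.20). Set against this mean within each animal, a comparison added after the values were seen, *Slc6a20a* was 0.34 higher in CrT-/y animals on the log2 scale (exact permutation test, two-sided p = 0.11) and *Slc6a13* 0.19 higher (two-sided p = 0.23 in the exact test), and the groups of both genes overlapped.

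**Figure D3:**
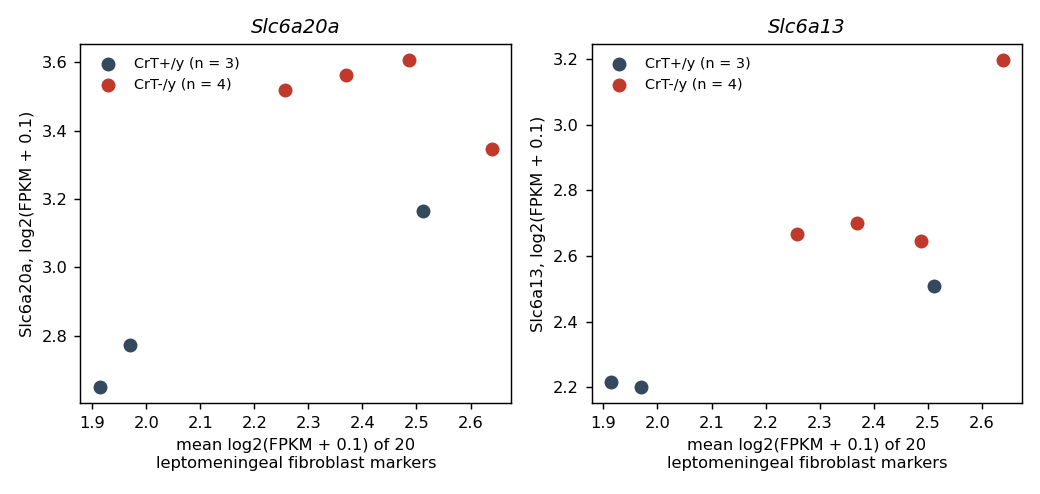
Level of *Slc6a20a* (left) and *Slc6a13* (right) in each animal against the mean level of the 20 leptomeningeal fibroblast markers, all as log2(FPKM + 0.1). Each point is 1 animal. The CrT+/y animals with the lowest marker level, replicates 1 and 3, also have the lowest levels of both genes, while the marker level of CrT+/y replicate 2 lies within the range of the CrT-/y animals.

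Choroid plexus RNA also differed between the samples, most of all in 1 library. *Ttr*, the transthyretin gene and the defining transcript of choroid plexus, was at 379.4 FPKM in CrT+/y replicate 2 and between 0.320 and 47.9 FPKM in the other 6 animals. The summed level of the 14 choroid plexus markers was 5.53 to 55.6 FPKM in CrT-/y and 7.36 to 419.6 FPKM in CrT+/y animals, and *Calml4* and *Cldn2* were at 0 in at least 1 animal. *Kl*, encoding Klotho, was the next most abundant of the list after *Ttr*, and of 5 markers tested 0 were called (median log2 fold change -0.61). Without CrT+/y replicate 2, the log2 fold change was 0.80 for *Slc6a20a* (adjusted p = 0.019 with limma) and 0.59 for *Slc6a13* (adjusted p = 0.095 with limma), so both were larger without this library.

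Markers of blood vessel cells were not higher with these genes. Those of endothelial cells, led by *Ly6c1* and *Cldn5*, did not overlap, at a summed 120.7 to 139.2 FPKM in CrT-/y and 141.3 to 157.8 FPKM in CrT+/y animals, with 3 of 10 called lower. Those of pericytes and smooth muscle, led by *Rgs5* and *Vtn*, overlapped at 104.9 to 116.6 and 112.6 to 126.9 FPKM, with 1 of 10 called lower. The ependymal sums, from 11.5 FPKM in a CrT+/y animal to 20.5 FPKM in a CrT-/y animal, overlapped as well, with 1 of 7 tested markers called higher. Beside these counts and those of the marker lists below, 10.1% of all 12988 tested genes were called, 377 higher and 941 lower. The part of any of these cell types in the levels of *Slc6a20a* and *Slc6a13* was not tested beyond these values.

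*Slc6a12* is the close neighbour of *Slc6a13*, starting 5342 bp beyond its end on the same strand, at 121343076 to 121365775 of chromosome 6. Its level was 0.810, 0.276, 0.683 and 0.984 FPKM in CrT-/y replicates 0 to 3 and 0.425, 0.705 and 0.410 FPKM in CrT+/y replicates 1 to 3. The groups overlapped widely, with the lowest and the highest animal both CrT-/y. Fitted without a filter on low values, its log2 fold change was 0.29 with a 95% interval of -0.56 to 1.14 (adjusted p = 0.71 with limma), so a change of the size seen in *Slc6a13* was not detectable at this level.

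The other transporters of the GABA and taurine branch were not called. *Slc6a11* lies on chromosome 6 from 114131241 to 114249952. It was at 57.9, 50.9, 52.7 and 55.0 FPKM in CrT-/y replicates 0 to 3 and at 55.8, 55.8 and 48.6 FPKM in CrT+/y replicates 1 to 3. The groups overlapped, and the log2 fold change was 0.02 with a 95% interval of -0.14 to 0.18 (adjusted p = 0.88 with limma). *Slc6a6*, on chromosome 6 from 91684053 to 91759066, encodes TauT, through which cells take up taurine. It was at 40.4, 41.5, 37.0 and 36.8 FPKM in CrT-/y replicates 0 to 3 and at 43.4, 37.7 and 31.4 FPKM in CrT+/y replicates 1 to 3. The CrT+/y animals spread more widely and enclosed all CrT-/y animals, and the log2 fold change was 0.06 with a 95% interval of -0.17 to 0.29 (adjusted p = 0.73 with limma). For both genes the interval leaves out a rise as large as the one fitted for *Slc6a13*.

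The remaining proline and neutral amino acid transporters are neuronal. *Slc6a7* encodes PROT, the proline transporter of excitatory nerve endings, on chromosome 18 from 60995380 to 61014222. It was at 22.8, 28.0, 25.5 and 27.5 FPKM in CrT-/y replicates 0 to 3 and at 19.8, 21.7 and 23.2 FPKM in CrT+/y replicates 1 to 3. The groups overlapped only through CrT-/y replicate 0, which lay below CrT+/y replicate 3. The log2 fold change was 0.26 (standard error 0.085, 95% interval 0.072 to 0.45), and the adjusted p of 0.107 with limma missed the threshold. *Slc6a15* encodes B0AT2, a carrier of branched-chain amino acids and proline, on chromosome 10 from 103367783 to 103419377. It was at 20.3, 21.7, 23.7 and 22.1 FPKM in CrT-/y replicates 0 to 3 and at 18.1, 18.3 and 20.5 FPKM in CrT+/y replicates 1 to 3. Again CrT-/y replicate 0 lay just below CrT+/y replicate 3, and no other pair crossed. The log2 fold change was 0.21 (standard error 0.071, 95% interval 0.050 to 0.37, adjusted p = 0.12 with limma).

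Whether *Slc6a7* and *Slc6a15* were called turned on the scaling between animals. Under quantile normalization, median centring and upper quartile scaling both were called higher, with log2 fold changes of 0.32, 0.30 and 0.33 for *Slc6a7* and 0.26, 0.25 and 0.27 for *Slc6a15* (adjusted p = 0.078 to 0.0999 with limma). These scalings also moved the share of higher genes among all called genes, from 28.6% as deposited (377 higher and 941 lower) to 48.7%, 48.2% and 61.5%. Without CrT+/y replicate 3, both were called as well, at 0.32 and 0.27 (adjusted p = 0.046 and 0.032 with limma), and *Slc6a7* was called without CrT-/y replicate 0 (0.32, adjusted p = 0.085 with limma). Among excitatory neuron markers, led by *Nrgn* and *Camk2a*, 3 of 10 were called lower and 0 higher, and their summed level was 2676 to 2915 FPKM in CrT-/y and 2876 to 3624 FPKM in CrT+/y animals.

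*Slc6a17* lies on chromosome 3 from 107467543 to 107518018 on the minus strand. It was at 116.9, 114.7, 119.6 and 119.0 FPKM in CrT-/y replicates 0 to 3 and at 112.2, 105.8 and 125.9 FPKM in CrT+/y replicates 1 to 3. The CrT-/y animals lay close to each other and inside the range of the CrT+/y animals. The log2 fold change was 0.04 with a 95% interval of -0.11 to 0.19 (adjusted p = 0.74 with limma). *Slc6a9*, on chromosome 4 from 117834506 to 117875198, overlaps *B4galt2* (29.1 to 33.2 FPKM) on the other strand. It was at 17.3, 17.6, 16.9 and 13.6 FPKM in CrT-/y replicates 0 to 3 and at 14.3, 17.5 and 15.3 FPKM in CrT+/y replicates 1 to 3. The lowest of all animals, CrT-/y replicate 3, was the one highest in *Slc6a13* and the one lowest in oligodendrocyte markers, at a summed 894 FPKM against 1279 to 1381 FPKM in the other CrT-/y animals. The part of these cells in the level of *Slc6a9* was not tested. The log2 fold change of *Slc6a9* was 0.05 with a 95% interval of -0.18 to 0.29 (adjusted p = 0.79 with limma). Astrocyte markers, led by *Slc1a2* and *Aldoc*, summed to 1237 to 1365 FPKM in CrT-/y and 1345 to 1547 FPKM in CrT+/y animals, with 1 of 12 called lower. Inhibitory neuron markers (1560 to 1767 and 1722 to 1945 FPKM) held 2 of 10 called higher and 1 lower, those of oligodendrocytes (894 to 1381 and 1250 to 1646 FPKM) 1 of 8 lower, and those of microglia (188.6 to 199.5 and 183.8 to 199.2 FPKM) 1 of 8 higher.

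**Figure D4:**
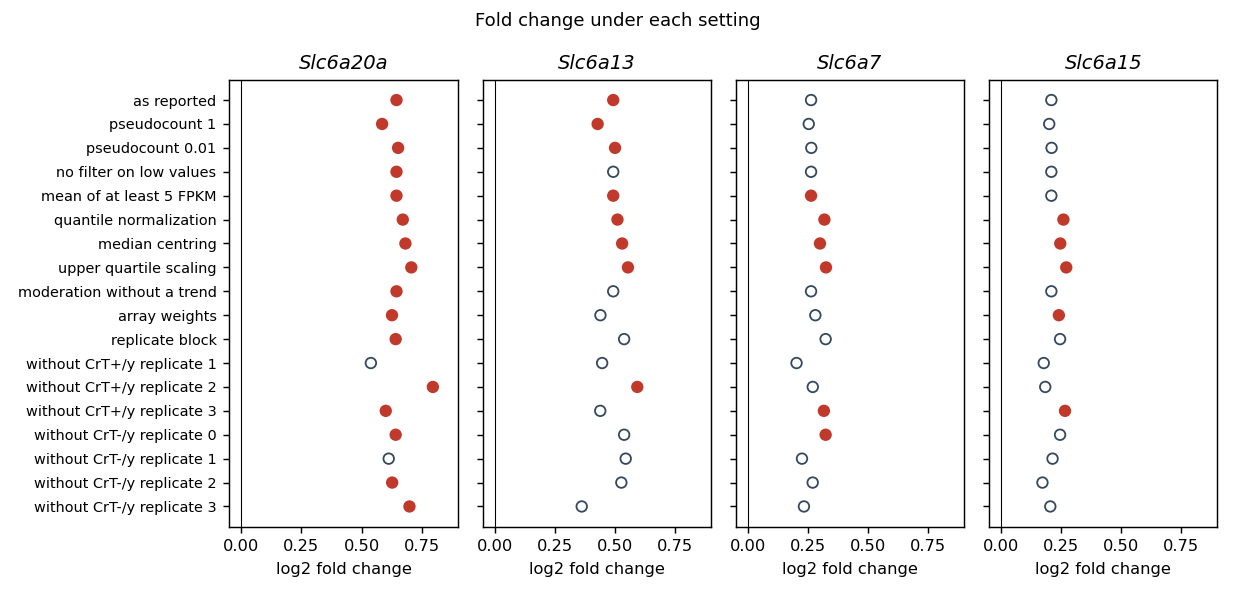
Log2 fold change of 4 transporter genes as reported and under each alternative setting. Filled red points have an adjusted p under 0.1 in limma and open points do not. All values are above 0. *Slc6a20a* is called in 15 of 17 alternatives, *Slc6a13* in 7, *Slc6a7* in 6 and *Slc6a15* in 5.

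Another 8 SLC6 genes in the table, among them the dopamine, serotonin and noradrenaline transporter genes *Slc6a3*, *Slc6a4* and *Slc6a2*, were at 0.266 FPKM or less in every animal, and *Slc6a18* was listed at 0 in all of them.

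Genes that make, break down or otherwise handle the substrates of these transporters came to 6 lists, and 4 of these genes were called. Among all 12988 tested genes 10.1% were called, 377 higher and 941 lower, so calls in either direction were common outside the lists. Of 10 tested genes of GABA synthesis, packaging and breakdown, 1 was called higher and 0 lower, and the median log2 fold change was -0.03. The called gene was *Gad1*, which encodes the main GABA-synthesizing enzyme, at 130.6 against 110.9 FPKM on average (log2 fold change 0.24, adjusted p = 0.097 with limma). Of 9 tested genes of the osmotic response, 1 was called lower. This was *Slc5a3*, the sodium-coupled transporter of the osmolyte myo-inositol, at 4.41 against 6.54 FPKM (log2 fold change -0.53, adjusted p = 0.081 with limma). *Nfat5*, the transcription factor that drives osmolyte transporters, had a log2 fold change of -0.15 and was not called. The median of the osmotic list was -0.15.

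Of 10 tested glycine genes, 2 were called lower and 0 higher, with a list median of -0.10. They were *Glrb*, the beta subunit of the glycine receptor, at 98.7 against 114.7 FPKM (log2 fold change -0.22, adjusted p = 0.063 with limma), and *Dld*, a subunit shared by the glycine cleavage system and several dehydrogenase complexes, at 62.6 against 75.3 FPKM (-0.26, adjusted p = 0.072 with limma). No gene was called among 6 for taurine and betaine synthesis and breakdown (median 0.07), 6 for proline (median -0.05) and 13 for neutral and branched-chain amino acids (median -0.01). The smallest p in each belonged to *Aldh7a1* (log2 fold change -0.17, adjusted p = 0.13 with limma), *Prodh*, the first enzyme of proline breakdown (-0.24, adjusted p = 0.18 with limma), and *Bcat1*, a branched-chain aminotransferase (-0.20, adjusted p = 0.12 with limma). *Gad1* was called under all 3 other scalings, *Glrb* and *Slc5a3* under quantile normalization only, and *Dld* under none of them. Leaving out any of the 4 CrT-/y animals left no gene of these lists called. The fit that omitted CrT+/y replicate 1 called only *Slc5a3*, and the fit that omitted CrT+/y replicate 3 called 14 genes of these lists and 28.7% of all genes tested.

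**Figure D5:**
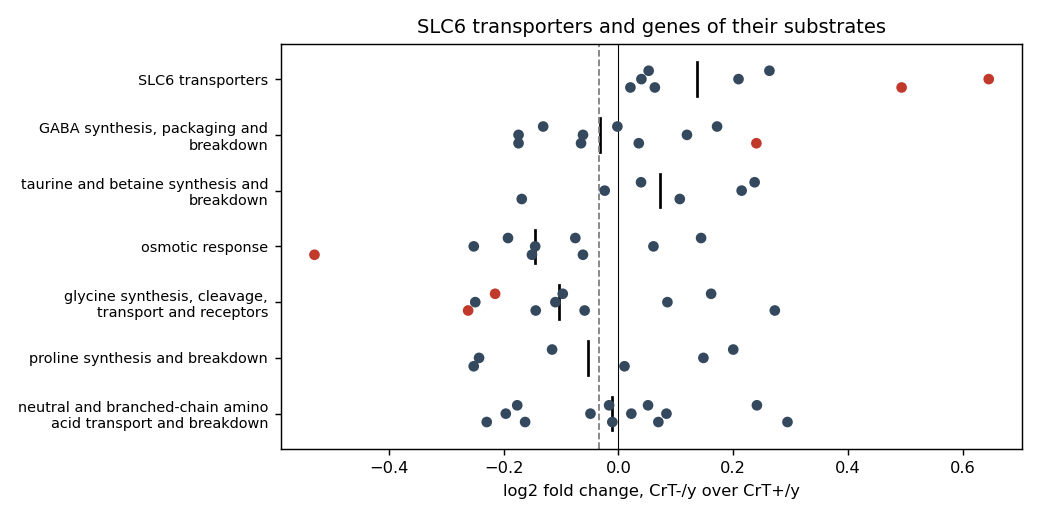
Log2 fold change of the 8 tested SLC6 transporters and of the tested genes in 6 lists for their substrates. Points are genes, red where the adjusted p in limma is under 0.1, black ticks are list medians, and the dashed line is the median of all tested genes at -0.03. The transporters have a median of 0.14, and the list medians lie between -0.15 and 0.07.

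The members were also compared animal by animal, after the mean of each genotype had been taken out of the log2 values. These correlations describe 7 animals and carry no test, and animals share composition, depth and RNA quality across genes. *Slc6a13* and *Slc6a12* had an r of 0.68, and *Slc6a20a* had an r of 0.02 with each of these 2 genes. The highest r among the 9 was 0.87, between *Slc6a9* and *Slc6a20a*, and the lowest -0.80, between *Slc6a11* and *Slc6a15*. The value of 0.87 leans on single animals. CrT-/y replicate 3 was the lowest of its group in *Slc6a9* and *Slc6a20a* (13.6 and 10.1 FPKM). CrT+/y replicate 2 was the highest of its group in both (17.5 and 8.87 FPKM).

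Across the 10 marker lists, the highest median r of any of the 9 genes was 0.96, between *Slc6a9* and the 8 oligodendrocyte markers, 5 of which were among its 100 most alike genes. CrT-/y replicate 3, lowest of all animals in *Slc6a9* (13.6 FPKM) and in summed oligodendrocyte markers (894 FPKM), weighs heavily in that value. *Slc6a20a* was highest with the 5 tested choroid plexus markers (0.86), followed by oligodendrocyte (0.75) and leptomeningeal (0.52) markers, and lowest with excitatory neuron markers (-0.79). The choroid plexus value leans on CrT+/y replicate 2, at a summed 419.6 FPKM of these markers against 5.53 to 55.6 FPKM in the other animals. That animal was also the highest of its group in *Slc6a20a*, at 8.87 FPKM, and in summed oligodendrocyte markers, at 1646 FPKM. CrT-/y replicate 3 was the lowest of its group in both, at 10.1 and 894 FPKM, so the oligodendrocyte value leans on these animals. *Slc6a13* was highest with the 7 tested ependymal markers (0.70), followed by the leptomeningeal ones (0.61), of which 3 were among its 100 most alike genes, and lowest with oligodendrocyte markers (-0.54). These values too lean on CrT-/y replicate 3, the highest of all animals in *Slc6a13* (9.07 FPKM). It was also highest in summed ependymal (20.5 FPKM) and leptomeningeal (178.0 FPKM) markers and lowest in oligodendrocyte markers. *Slc6a11* was highest with endothelial (0.65) and astrocyte (0.61) markers. With all tested genes the medians of these 4 genes lay between -0.07 and 0.07.

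Among 12988 tested genes, those most like *Slc6a20a* in this measure were *Zfp862-ps* (r = 0.999), *Gnl3* (0.993) and *Bcl2* (0.993). Those most like *Slc6a13* were *Gpatch2* (0.982), *Adora2b* (0.971) and *Stab1* (0.967). The nearest gene was *Wdfy3* for *Slc6a12*, *Efcab2* for *Slc6a11*, *Rab21* for *Slc6a6*, *Fam179b* for *Slc6a7*, *Ier2* for *Slc6a15*, *Sdhd* for *Slc6a17* and *Trim36* for *Slc6a9*, at an r of 0.982 to 0.996. With so few animals, the highest r among 12988 genes lies near the top of the scale for any gene. These values therefore do not show that the genes are expressed together.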

How the data were processed

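Total cortical RNA of 4 CrT-/y and 3 CrT+/y male mice was sequenced by the authors as paired-end mRNA libraries, 1 per animal. Groups and replicate numbers came from the labels. The authors aligned reads to mm10 with the Tuxedo protocol, kept unique alignments to known exons and junctions, and deposited 1 table of FPKM per gene symbol. The submitters' processing notes name Bowtie and Cuffnorm. FPKM are not counts, so no count model was used, and all 7 columns were used. Mutant and wild-type animals came from the same litters, but which were littermates is not given.

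FPKM plus 0.1 were put on the log2 scale, the 12988 genes whose mean reached 1 FPKM were kept, and genotype was fitted across them with limma 3.58.1 (R 4.3.3), letting the prior variance follow expression. The p-values were adjusted by the Benjamini-Hochberg method and measure the spread between animals. *Slc6a12* came from the fit without a filter. Simulated data with 200 of 12988 genes changed between CrT-/y and CrT+/y were used as a check. The fit recovered 9.5% of changes of 0.3 on the log2 scale, 77.5% of 0.6 and 94.5% of 1, with false calls of 11.3% to 13.6%. The simulation drew noise for each gene on its own and changed fewer genes than the 1318 called in the animals. Its rates therefore need not hold for these data. Exact permutation tests were two-sided over 35 splits. Depth in reads is not in the table. From 2543 weakly expressed genes, the relative depth of the libraries lay between 1 and 1.42. Each animal had 17207 to 17821 genes above 0 FPKM. Between animals, Pearson's r of log2 profiles was 0.979 to 0.990.

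The 9 genes, the lists of pathway genes and of cell type markers, and the tests were chosen with earlier results of these data known. Named are the 9 genes, *Slc6a8*, list genes that were called or had the smallest p, the 2 most abundant markers of a list read beside a member, and the genes most like each member. That rule took 3 such genes a member, all given for the called members and the first for the others. *Ccr9*, *B4galt2*, *Slc6a20b*, *Nfat5*, *Calml4*, *Cldn2* and the further SLC6 genes named for their low levels were added after their values were seen. Positions come from GENCODE M21 (GRCm38). Other steps used Python 3.11.15, numpy 2.4.6, pandas 2.3.3 and matplotlib 3.10.9. Alternatives were the pseudocount, filter, scaling, moderation, array weights, replicate block and leaving out each animal. Protein sequences were not used here, and some genes that the rule on named genes covers are not reported here.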

Additional observations from a re-analysis of the deposited data

Results flagged for a closer look

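Of 20 sets of 4 CrT-/y values examined, 10 for SLC6 genes and 10 for summed marker lists, 2 held an animal far from the other 3 by Dixon's test. Chance alone marks about 1 set in 20. *Slc6a13* was at 9.07 FPKM in CrT-/y replicate 3 and at 6.17 to 6.41 FPKM in the other CrT-/y animals, and the gap made up 0.92 of the range. *Slc6a9* was at 13.6 FPKM in the same animal and at 16.9 to 17.6 FPKM in the others, a gap of 0.83 of the range. Oligodendrocyte markers summed to 894 FPKM in that animal and to 1279 to 1381 FPKM in the other CrT-/y animals, and their part in the *Slc6a9* value was not tested.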

How the results depend on the processing

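Each of 17 alternative settings was compared with the values reported above, and *Slc6a8* kept its direction and its call in all of them (log2 fold change -1.10 to -0.98). The number of genes called over the table, 1318 as reported, was 730 without a filter on low values, 576 with the replicate block, and 64 to 3736 when 1 animal was left out, lowest without CrT-/y replicate 1 and highest without CrT+/y replicate 3 (28.7% of genes tested). Of the SLC6 transporters, 2 were called as reported, 4 under each of quantile normalization, median centring and upper quartile scaling, 1 without a filter, 1 without a trend, 1 with the block, and 0 to 3 with an animal left out. Of the pathway genes, 4 were called as reported, 1 without a filter, 1 under median centring, 0 without a trend, 0 with the block, and 0 to 14 with an animal left out. *Slc6a20a* kept its call in 15 settings, at 0.54 to 0.80 with an animal left out, and was not called without CrT-/y replicate 1 or CrT+/y replicate 1. *Slc6a13* kept it in 7 and was not called without a filter (0.49), without a trend (0.49), with array weights (0.44), with the block (0.54, adjusted p = 0.12 with limma) and in 6 of the fits without an animal (0.36 to 0.59 over all of them). Relative to the leptomeningeal list, an alternative chosen after seeing the data, *Slc6a20a* was at 0.34 and *Slc6a13* at 0.19, neither past the threshold. *Slc6a7* was called at a filter of 5 FPKM (0.26) and under the quantile (0.32), median (0.30) and upper quartile (0.33) scalings, and lay at 0.20 to 0.32 with an animal left out. *Slc6a15* was called under the same scalings (0.26, 0.25 and 0.27) and with array weights (0.24), and lay at 0.17 to 0.27 with an animal left out. Values near 0 changed sign: *Slc6a11* with array weights (-0.013) and the block (-0.012), and, with an animal left out, *Slc6a11* (-0.046 to 0.054), *Slc6a6* (-0.058 to 0.17), *Slc6a9* (-0.013 to 0.14) and *Slc6a17* (-0.016 to 0.11). The scalings moved the median of all tested genes from -0.03 to between -0.002 and 0.028. Same-numbered animals of the 2 genotypes had deviations that correlated at -0.08, 0.05 and -0.05. These values cannot tell whether they were littermates, since a shared litter need not show in whole profiles. The block changed no call other than those given. Number 0 was used in CrT-/y only, so for these genes the block gave the same fold changes as the fit without CrT-/y replicate 0. Those 2 settings are therefore not separate checks of the fold changes. Apart from the smaller numbers of animals or genes tested that some settings entail, the cause of these changes was not tested. Depth in reads is unknown, and *Slc6a12*, under 1 FPKM throughout, allowed no firm statement (0.10 to 0.61 over 15 settings).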
